A study of Homo sapiens with 24 samples.

Results

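Interferon-stimulated genes are the genes that cells switch on after interferon binds its receptors. The 49 genes described here are classical members of this programme without the IFIT family. They were chosen by symbol, and all 49 were found among the 18632 genes measured. Expression was profiled on 24 arrays, labelled by an Affymetrix whole-transcript protocol, 1 per well, from Nthy-ori 3-1, a line of normal thyroid follicular epithelial cells immortalised with SV40, and TPC-1, a line from a papillary thyroid carcinoma. The comparisons ask how these genes respond to loss of COPZ1, a zeta subunit of COPI, the vesicle coat that carries vesicles from the Golgi apparatus back to the endoplasmic reticulum.

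The wells fall into 8 groups of 3, made by line, siRNA and time. Each line received either siCOPZ1, an esiRNA that is a pool of short duplexes against COPZ1, or siNT, a non-targeting universal control that is a single duplex. RNA was collected 48 h or 72 h after transfection. All 8 groups were transfected with siRNA at 20 nM in a lipid reagent, so none of them shows the genes in untransfected cells. The kind of reagent changes together with the depletion, and the medium (DMEM for TPC-1, RPMI for Nthy-ori 3-1) changes together with the line, so neither can be told apart from the comparison it moves with. The labels call the wells triplicates without saying that they were separate experiments, so a p-value measures the spread between wells. With RNA from whole wells, fewer cells with a transcript and less transcript per cell cannot be told apart.

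Levels are log2 values, on which a difference of 1 is a 2-fold change. COPZ1 was lower in siCOPZ1 than in siNT by log2 differences of -3.25 and -2.17 in TPC-1 at 48 h and 72 h, and of -1.96 and -1.57 in Nthy-ori 3-1, with limma adjusted p-values of 1.03e-07, 1.83e-06, 0.000656 and 0.0178. Arrays of the same group correlated at 0.971 to 0.989. The thyroid factor PAX8 lay between 10.0 and 12.4 in all 8 groups, while the differentiation genes TSHR and SLC5A5 stayed in all 8 below 5.34, the 95th percentile of 343 olfactory receptor genes that serve here as a measure of dim signal. The thyroglobulin gene TG (5.99 to 6.56) and the thyroid factors NKX2-1 (5.54 to 5.94) and FOXE1 (7.45 to 8.35) lay above that dim level in all 8. The leukocyte gene PTPRC lay between 2.88 and 3.53. The summed linear level of 12 immune cell markers in TPC-1 at 72 h ranged from 392 to 495 over siNT wells and from 379 to 465 over siCOPZ1 wells, and 8 or 9 of the 12 were below the dim level in every group. In TPC-1 at 72 h, CD14 (-0.51), the fibroblast marker PDGFRB (-1.50) and the thyroid factor FOXE1 (-0.90) were called lower after depletion. They were 1 of 6 macrophage and dendritic, 1 of 5 fibroblast and 1 of 7 thyroid markers, beside 7.42% of all genes called lower. In these lists 3, 2 and 3 markers differed upward, and no epithelial, T cell, B cell or endothelial marker was called. CD14 lay under the dim level in 7 of the 8 groups. The part of these markers in the results was not tested.

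Type I interferons signal through the receptor chains IFNAR1 and IFNAR2 and the kinases JAK1 and TYK2, which activate transcription factors of the STAT family. A complex that holds STAT2 and IRF9 then binds the interferon-stimulated response element, a short motif built around repeats of GAAA, near the start of many of these genes. The products then act in different places: some sense or destroy viral RNA, some block viral entry, some attach the ubiquitin-like protein ISG15 to other proteins, and several feed back on interferon signalling itself. Many of them are also present at a basal level without added interferon.

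RefSeq promoter windows of GRCh38.p14, from 250 bases before to 50 bases after a transcript start, were at hand for 42 of the 49 genes, in 58 windows of 300 bases. Windows of IFITM2, MX2, OAS2, OASL, USP18, TRIM22 and APOL6 were not used here. The core of the response element was searched on both strands as the letters GAAA, any 2 bases and GAAA again. It stood in a window of 28 of the 42 genes, or 66.7%, and in a window of 4.38% of 27305 genes. By window, 32 of 58 held it, or 55.2%, against 3.57% of 35116. The letters TTCNNNGAA of the gamma-activated site stood in 24.1% of the 58 windows and in 7.66% of all windows. The following windows belong to some of the genes whose levels carry the results below. Each is read 5′ to 3′ along its gene with matches to this core on either strand in capitals. Overlapping matches run together, as in ISG15, and the matches in PARP12 and PARP9 and the first match in IFI27 lie on the opposite strand.
ISG20, chr15:88638766-88639065, plus strand: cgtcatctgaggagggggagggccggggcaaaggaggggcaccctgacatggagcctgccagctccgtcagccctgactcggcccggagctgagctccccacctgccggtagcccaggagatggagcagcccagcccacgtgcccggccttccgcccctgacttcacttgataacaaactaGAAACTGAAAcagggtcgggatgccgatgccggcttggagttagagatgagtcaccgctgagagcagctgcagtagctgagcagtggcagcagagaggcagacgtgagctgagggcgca
PARP12, chr7:140062902-140063201, minus strand: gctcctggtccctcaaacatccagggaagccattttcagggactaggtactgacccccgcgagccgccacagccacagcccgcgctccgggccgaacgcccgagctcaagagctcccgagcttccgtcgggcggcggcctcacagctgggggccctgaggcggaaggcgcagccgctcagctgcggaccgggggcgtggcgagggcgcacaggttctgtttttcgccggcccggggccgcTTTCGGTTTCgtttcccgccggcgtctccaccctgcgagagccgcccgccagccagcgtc
PARP9, chr3:122564251-122564550, minus strand: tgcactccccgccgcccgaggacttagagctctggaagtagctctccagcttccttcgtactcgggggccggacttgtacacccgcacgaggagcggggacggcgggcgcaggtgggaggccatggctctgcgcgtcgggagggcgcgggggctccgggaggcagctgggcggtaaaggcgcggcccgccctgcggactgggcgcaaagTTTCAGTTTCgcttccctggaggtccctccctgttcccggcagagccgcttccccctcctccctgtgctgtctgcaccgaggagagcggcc
DTX3L, chr3:122564088-122564387, plus strand: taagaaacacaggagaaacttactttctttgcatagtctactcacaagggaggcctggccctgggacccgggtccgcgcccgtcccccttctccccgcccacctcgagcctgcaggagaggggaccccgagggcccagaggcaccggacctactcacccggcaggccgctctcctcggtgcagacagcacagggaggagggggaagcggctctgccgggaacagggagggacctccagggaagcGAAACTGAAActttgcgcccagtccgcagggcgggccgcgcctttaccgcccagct
IFI27, chr14:94110486-94110785, plus strand: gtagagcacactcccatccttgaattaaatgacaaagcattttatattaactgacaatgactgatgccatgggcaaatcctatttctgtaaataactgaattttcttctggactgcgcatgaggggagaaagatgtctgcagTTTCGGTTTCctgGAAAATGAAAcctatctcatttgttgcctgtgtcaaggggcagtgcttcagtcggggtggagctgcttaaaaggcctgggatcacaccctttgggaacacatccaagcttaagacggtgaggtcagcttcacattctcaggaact
IFI6, chr1:27672143-27672442, minus strand: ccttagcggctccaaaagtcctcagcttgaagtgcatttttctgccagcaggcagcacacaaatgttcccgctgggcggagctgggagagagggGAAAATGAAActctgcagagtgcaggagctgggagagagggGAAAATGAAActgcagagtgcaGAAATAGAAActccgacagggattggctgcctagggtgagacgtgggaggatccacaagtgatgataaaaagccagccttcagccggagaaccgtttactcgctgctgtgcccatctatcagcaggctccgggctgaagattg
ISG15, chr1:1013247-1013546, plus strand: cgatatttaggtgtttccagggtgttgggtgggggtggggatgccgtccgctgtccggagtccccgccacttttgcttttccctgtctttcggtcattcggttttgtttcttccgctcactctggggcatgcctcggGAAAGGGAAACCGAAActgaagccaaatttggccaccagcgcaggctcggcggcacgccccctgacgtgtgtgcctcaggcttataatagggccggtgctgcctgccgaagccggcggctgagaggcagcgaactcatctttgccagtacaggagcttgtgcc
IFI44L, chr1:78620198-78620497, plus strand: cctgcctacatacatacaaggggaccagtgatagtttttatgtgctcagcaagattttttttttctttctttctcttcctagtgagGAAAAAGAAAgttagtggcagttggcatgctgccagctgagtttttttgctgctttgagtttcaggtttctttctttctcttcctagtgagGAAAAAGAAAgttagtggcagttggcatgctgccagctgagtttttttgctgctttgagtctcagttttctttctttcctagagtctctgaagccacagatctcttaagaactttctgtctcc

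PARP9 and DTX3L start head to head, and their windows share the match at chr3:122564332-122564341. IFI6 holds 3 matches, IFI27, ISG15 and IFI44L hold 2 each, and ISG20 and PARP12 hold 1. The window of DDX60L, not shown, holds 2. A further PARP9 window and both SP100 windows hold none. A match is a description of the letters and says nothing of what is bound there.

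The 49 genes were spread over most of the range of the arrays. In all 8 groups, 36 of the 49 lay above the dim level of 5.34, and in the 4 TPC-1 groups 43 did. TRIM22 and CMPK2 were below it in all 8. Most of the variation lay between the lines and between wells rather than between siRNAs. The median share of a gene's variance that went with the line was 45.9%, against 20.1% over all genes. The spread between wells of a group took 25.5%, against 42.7% over all genes. The siRNA, averaged over lines and times, took 1.52%, against 2.11% over all genes. Its interactions with line, with time and with both took 1.53%, 1.07% and 0.648%, against 1.74%, 1.73% and 1.08%. Single genes had more, up to 27.2% for siRNA by time in DDX60L. The line took the largest share in 27 of the 49 and the spread between wells in 20, as with MX1, BST2 and TRIM22.

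After COPZ1 depletion in TPC-1 for 72 h, 4 of the 49 genes rose and 2 fell, or 5 and 1 when each array's median was subtracted. ISG20, an exonuclease of single-stranded RNA, DDX60L, a helicase, PARP12, an ADP-ribosyltransferase, and SP100, a nuclear body protein, were higher, and PARP9, a partner of the ubiquitin ligase DTX3L, and IFI27, a mitochondrial protein, were lower. The share called in either direction, 12.2%, is close to that of all genes, 14.4%, of which 7.03% were higher and 7.42% lower. The median difference was 0.10 over the 49 and -0.00498 over all genes. The 3 siCOPZ1 wells lay all above the 3 siNT wells for 10 genes and all below for 6, or 20.4% and 12.2%, against 14.0% and 14.9% of all genes. At an unadjusted p below 0.05, 14 of the 49 passed, against 26.2% of all genes. For 36 of the 49, or 73.5% against 78.0% of all genes, the 95% interval of the difference stayed within a 2-fold change. For those genes a larger shift lies outside the interval, and for the other 13 it reached that far. The count of 6 genes was 3 without siNT well 1 and 3 without siCOPZ1 well 2 or well 3.

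**Figure D1:**
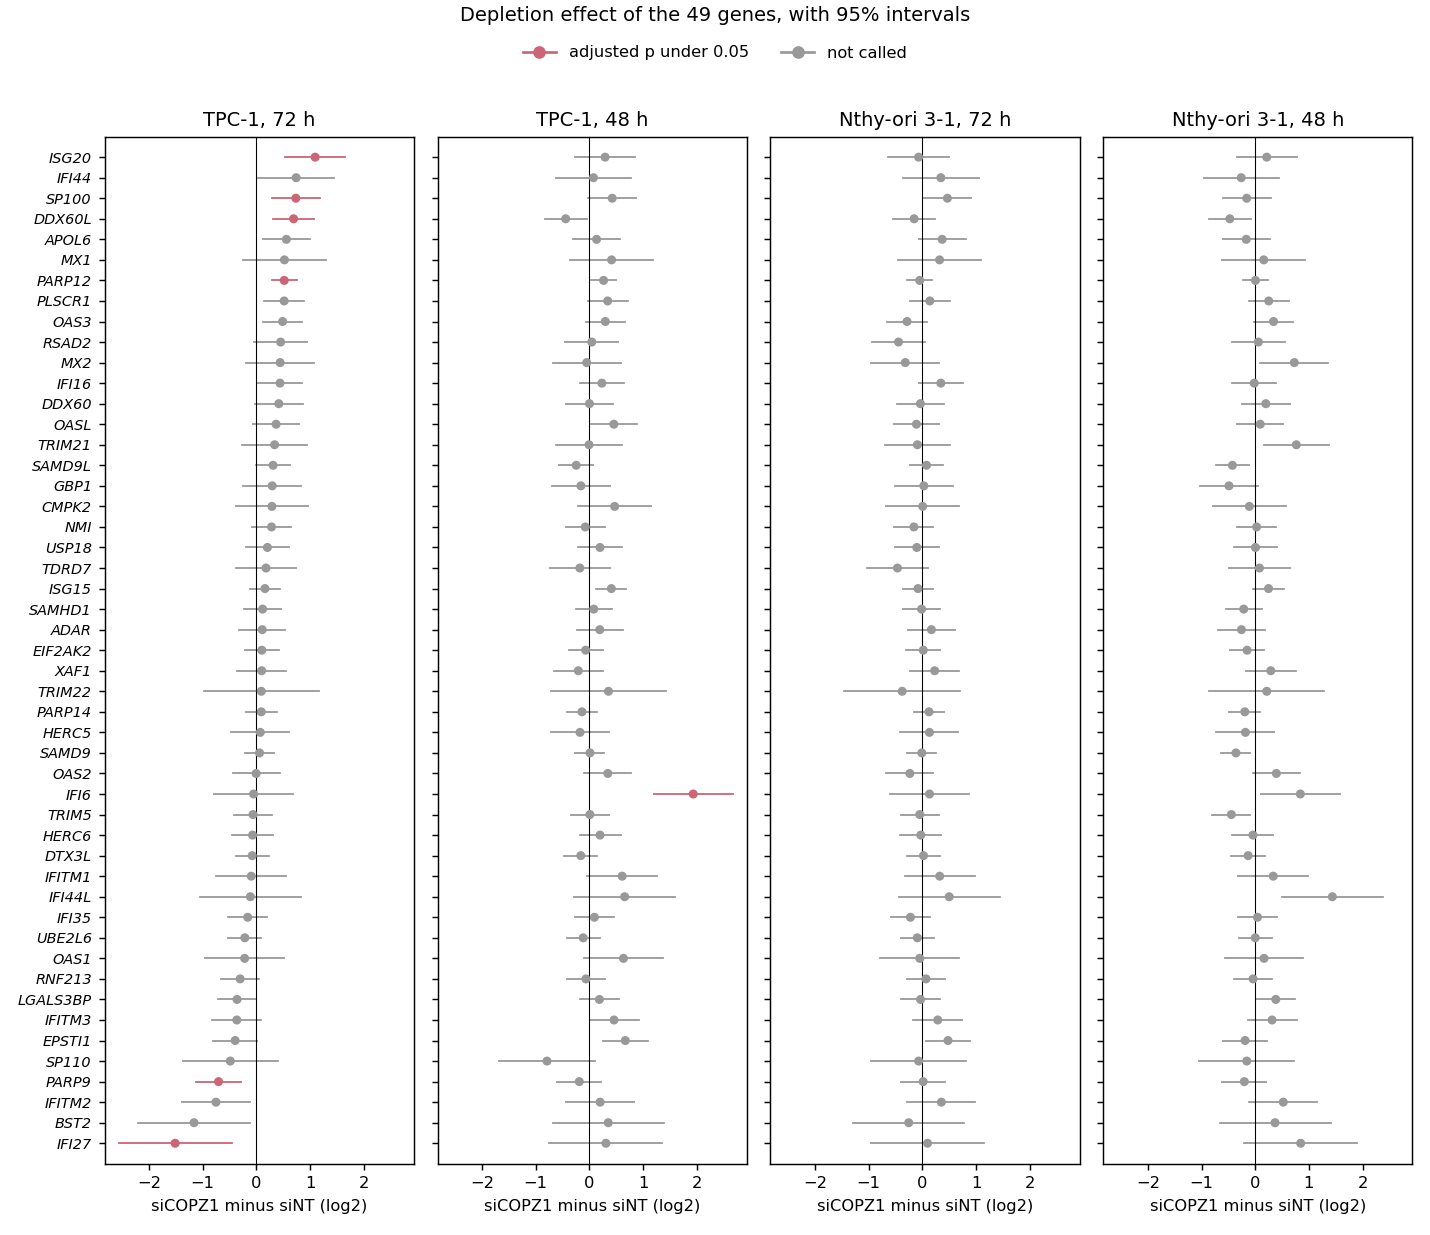
Difference of siCOPZ1 from siNT for the 49 genes, ordered by TPC-1 at 72 h, in each line and time. Points are log2 differences from limma and lines their 95% intervals. Of the 49, 6 are called in TPC-1 at 72 h, IFI6 in TPC-1 at 48 h, and none in Nthy-ori 3-1.

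Among the 13 sensors and RNA or nucleotide enzymes, 2 rose in TPC-1 at 72 h and none fell, with a median difference of 0.29. The counts of this and the following role groups stand beside 7.03% of all genes higher, 7.42% lower and a median of -0.00498, and with so few genes a group nothing particular is read from them. ISG20 measured 6.80, 6.52 and 6.21 in the siNT wells and 7.77, 7.44 and 7.59 in the siCOPZ1 wells. Every depleted well was above every control well, by a log2 difference of 1.09 ± 0.27 (SE, n = 3 and 3, limma adjusted p = 0.00823). This call held when each of the 6 wells was left out in turn, but in the weakest case only narrowly (limma adjusted p up to 0.0498). DDX60L measured 6.36, 6.62 and 6.98 with siNT and 7.23, 7.40 and 7.40 with siCOPZ1, again without overlap (0.69 ± 0.19, adjusted p = 0.0153). Its call was lost without siNT well 1 (0.55, adjusted p = 0.0869) and without siCOPZ1 well 2 or 3 (0.66 each, adjusted p = 0.0529 and 0.0524). With only the 6 arrays of the comparison in the fit, DDX60L (adjusted p = 0.0648), PARP9 (0.108) and SP100 (0.153) were not called, while ISG20, PARP12 and IFI27 were.

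OAS1, OAS2, OAS3 and OASL form a family in which the catalytic members make short oligoadenylates that activate RNase L, and none of the 4 was called. OAS1 measured 6.01, 5.63 and 5.74 with siNT and 6.65, 4.58 and 5.49 with siCOPZ1. The depleted wells lay on both sides of the controls, and the lowest difference in this group of enzymes, -0.22 ± 0.35, turned to 0.27 without siCOPZ1 well 2. OAS3 differed by 0.49 ± 0.17 with all depleted wells higher (adjusted p = 0.0683), while OAS2 differed by -0.01. RSAD2, or viperin, which makes a chain-terminating nucleotide, measured 5.21, 5.45 and 5.21 with siNT and 5.75, 5.94 and 5.54 with siCOPZ1. Its wells did not overlap, yet the difference of 0.45 ± 0.24 did not pass (adjusted p = 0.236). The double-stranded RNA kinase EIF2AK2 differed by 0.10 and the RNA editor ADAR by 0.11.

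None of the 7 membrane and entry factors was called in TPC-1 at 72 h. BST2, or tetherin, which holds budding virus at the cell surface, measured 5.50, 5.30 and 5.35 with siNT and 4.79, 3.25 and 4.62 with siCOPZ1. All depleted wells were lower, with well 2 far below the others, and the difference of -1.16 ± 0.50 did not pass (adjusted p = 0.134). The depleted wells all lay under the dim level of 5.34. MX1, a dynamin-like GTPase, measured 5.79, 6.03 and 5.49 with siNT and 7.23, 5.91 and 5.72 with siCOPZ1, so its difference of 0.52 ± 0.37 came from well 1 and was 0.05 without it. That well also held the highest value of its group for OAS1, ISG15 and PLSCR1, and 31 of the 49 genes there exceeded their group mean.

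The entry factors IFITM1, IFITM2 and IFITM3 are close paralogs, and their values are uncertain, since how the probes tell them apart is not given in the sources. IFITM2 was 10.23, 10.86 and 10.98 with siNT and 9.77, 9.96 and 10.08 with siCOPZ1. Its depleted wells were all lower (-0.75 ± 0.30, adjusted p = 0.110), and it was called with the well number as a block. IFITM3, at about 12 in both, differed by -0.37, and IFITM1 by -0.10.

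None of the 5 genes of the ISG15 system was called. ISG15, the ubiquitin-like modifier itself, measured 7.34, 7.43 and 7.21 in siNT and 7.73, 7.25 and 7.48 in siCOPZ1 wells of TPC-1 at 72 h. Well 2 lay among the controls, and the difference was 0.16 ± 0.14 (adjusted p = 0.508). The conjugating enzyme UBE2L6 marked the low end of the group at -0.22 and the deconjugating protease USP18 the high end at 0.20, with the ligases HERC5 and HERC6 between them. ISG15 had a small pooled standard deviation between wells of 0.15, lower than that of all but 12.9% of genes.

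Of the 8 genes for ADP-ribosylation and ubiquitin ligases, 1 rose and 1 fell. PARP12 measured 9.89, 9.96 and 9.82 with siNT and 10.40, 10.39 and 10.42 with siCOPZ1. The wells of each group were tightly bunched and did not overlap (0.52 ± 0.11, adjusted p = 0.00280). The call held when each of the 6 wells was left out in turn (limma adjusted p up to 0.0180). PARP9 measured 8.35, 8.35 and 8.57 with siNT and 8.20, 7.51 and 7.45 with siCOPZ1. All depleted wells were lower, well 1 only slightly (-0.71 ± 0.20, adjusted p = 0.0188).

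The PARP9 call was lost without siNT well 3 (-0.63, adjusted p = 0.0807), siCOPZ1 well 2 (-0.60, adjusted p = 0.0907) and siCOPZ1 well 3 (-0.57, adjusted p = 0.103). DTX3L, which shares its start region with PARP9 and binds its protein, measured 9.53, 9.73 and 9.47 with siNT and 9.58, 9.42 and 9.49 with siCOPZ1. These groups overlapped and differed by -0.08 ± 0.15. PARP14 differed by 0.09, and the antiviral TRIM5 and the antibody receptor TRIM21 by -0.06 and 0.34.

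Among the 5 nuclear body and DNA-binding genes SP100 rose. Its levels were 9.01, 9.60 and 9.42 with siNT and 9.57, 10.49 and 10.17 with siCOPZ1, so the lowest depleted well lay just under the highest control well (0.73 ± 0.21, adjusted p = 0.0242). The call was lost without siNT well 1 (0.57, adjusted p = 0.123), siCOPZ1 well 2 (0.53, adjusted p = 0.147) or siCOPZ1 well 3 (0.69, adjusted p = 0.0804). Its relative SP110 lay at the low end of the group with -0.49 ± 0.43, and the DNA sensor IFI16 differed by 0.44 ± 0.20 with all depleted wells higher (adjusted p = 0.160).

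Of the 3 mitochondrial and cell death genes IFI27 fell. It measured 8.52, 6.98 and 7.86 with siNT and 6.31, 6.06 and 6.45 with siCOPZ1. All depleted wells were lower and closer together than the controls, and the difference of -1.51 ± 0.50, the lowest of the 49, passed narrowly (adjusted p = 0.0490). Without siNT well 1 it was -1.15 (adjusted p = 0.202), without siNT well 3 -1.48 (0.118), and without siCOPZ1 well 1, 2 or 3 it was -1.53, -1.41 or -1.60 (adjusted p = 0.0916, 0.134 and 0.0850), none of them called. Subtracting each array's median also ended the call (-1.47, adjusted p = 0.0511). In TPC-1 siNT wells IFI27 averaged 6.38 at 48 h and 7.79 at 72 h, a difference of 1.40, not called in the main fit. In siCOPZ1 wells it averaged 6.69 and 6.27. The fall at 72 h is therefore measured against controls that stood higher than at 48 h.

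IFI6, which acts against mitochondrial loss of membrane potential and apoptosis, measured 9.38, 9.10 and 9.17 with siNT and 9.51, 8.83 and 9.15 with siCOPZ1 at 72 h. The groups overlapped and differed by -0.05 ± 0.35. XAF1, a partner of the caspase inhibitor XIAP, differed by 0.10.

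None of the other 8 genes was called in TPC-1 at 72 h. IFI44 marked the high end with 0.74 ± 0.34 and all depleted wells higher (adjusted p = 0.163), and EPSTI1 the low end with -0.40 ± 0.20 (adjusted p = 0.215). IFI44L, the paralog of IFI44, measured 10.94, 9.90 and 10.46 with siNT and 11.12, 9.82 and 10.02 with siCOPZ1. Its groups overlapped and differed by -0.11 ± 0.45. APOL6, an apolipoprotein L family member linked to cell death, differed by 0.56 ± 0.21 with all depleted wells higher (adjusted p = 0.0856), and was called with the well number as a block.

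**Figure D2:**
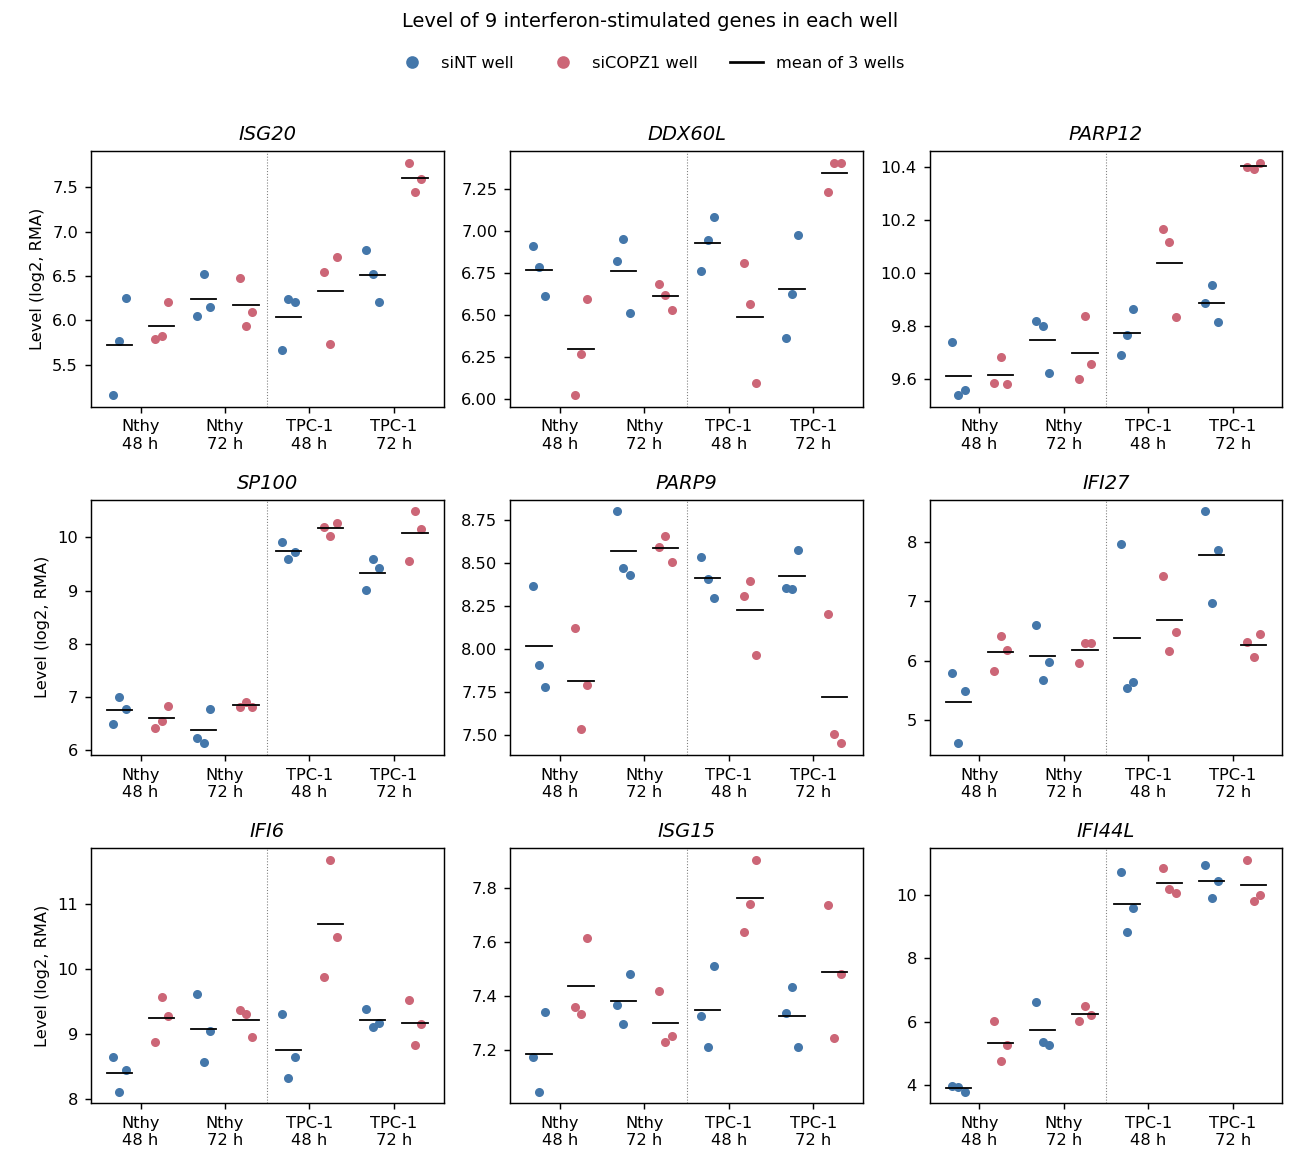
Level of 9 of the genes in each well, by line and time, with siNT in blue and siCOPZ1 in red and a line at the mean of 3 wells. Each panel has its own log2 axis. ISG20 and PARP12 stand above their controls in TPC-1 at 72 h, IFI27 below, and IFI6 stands high in TPC-1 depleted for 48 h.

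At 48 h in TPC-1 IFI6 was the gene that rose. It measured 9.30, 8.31 and 8.65 with siNT and 9.88, 11.68 and 10.50 with siCOPZ1. All depleted wells were higher, well 2 most, and the difference of 1.93 ± 0.35, or 3.82-fold, passed (adjusted p = 0.0291). This is 1 of 49 genes, 2.04%, against 0.166% of all genes (0.134% higher and 0.0322% lower). The call was lost without siNT well 2 (1.71, adjusted p = 0.113), siNT well 3 (1.88, adjusted p = 0.0902) or siCOPZ1 well 2 (1.44, adjusted p = 0.166). With only the 6 arrays of the comparison in the fit it was not called either (adjusted p = 0.576).

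The remaining 48 genes were not called at 48 h. Of the 49 differences, 33 were positive, 67.3% against 50.7% of all genes, with a median of 0.19 against 0.00. As in every count over the 49, these differences share the same wells, so the genes are not independent replicates. Single wells were not left out for the counts of direction here. The 3 depleted wells lay all above the controls for 9 genes, 18.4% against 6.91% of all genes, and all below for none, against 5.20%. ISG15 was among the 9, with 7.33, 7.21 and 7.51 in siNT and 7.64, 7.74 and 7.90 in siCOPZ1 wells (0.41 ± 0.14, adjusted p = 0.309). So were OAS1 (0.63 ± 0.35), EPSTI1 (0.67 ± 0.20), IFITM1 (0.61 ± 0.31), OASL (0.46 ± 0.20) and SP100 (0.43 ± 0.21), with adjusted p-values of 0.238 to 0.625. The largest negative difference was that of SP110, -0.79 ± 0.43, whose wells overlapped. At an unadjusted p below 0.05, 7 of the 49 passed, and 9.04% of all genes did.

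No gene of the 49 was called in depleted Nthy-ori 3-1 by limma, where 0.00537% of all genes were called at either time. At an unadjusted p below 0.05, 2 of the 49 passed at 72 h and 9 at 48 h, against 3.08% and 4.86% of all genes. The median difference was -0.01 at 72 h and 0.03 at 48 h. The 95% interval stayed within a 2-fold change for 42 of the 49 at 72 h and 39 at 48 h. These are 85.7% and 79.6%, against 91.5% and 90.8% of all genes.

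At 48 h in Nthy-ori 3-1 the largest difference was that of IFI44L, which measured 3.98, 3.94 and 3.79 with siNT and 6.01, 4.75 and 5.26 with siCOPZ1. The groups did not overlap, and the difference was 1.44 ± 0.45 (adjusted p = 0.960), but all siNT wells and 2 of the 3 siCOPZ1 wells lay under the dim level of 5.34. IFI6 measured 8.64, 8.10 and 8.44 with siNT and 8.87, 9.57 and 9.27 with siCOPZ1, also without overlap (0.84 ± 0.35, adjusted p = 0.989). IFI27 differed by 0.85 ± 0.50 with all depleted wells higher, and GBP1, DDX60L, TRIM5 and SAMD9L by -0.49, -0.47, -0.44 and -0.42 with all depleted wells lower. In all, 8 genes had every depleted well higher and 4 every depleted well lower, 16.3% and 8.16% against 5.91% and 6.71% of all genes. At 72 h these counts were 3 and 2, or 6.12% and 4.08% against 5.18% and 5.20% of all genes, and the differences ran from -0.46 in TDRD7 to 0.50 in IFI44L.

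The difference of the depletion effect between the lines was tested as an interaction in the same fit. At 72 h it passed for PARP12 alone of the 49, 2.04% against 4.02% of all genes (1.85% higher and 2.17% lower in TPC-1). In Nthy-ori 3-1 PARP12 measured 9.82, 9.80 and 9.63 with siNT and 9.60, 9.84 and 9.66 with siCOPZ1, with no separation. The effect in TPC-1 exceeded that in Nthy-ori 3-1 by 0.57 ± 0.16 (95% interval 0.24 to 0.89, adjusted p = 0.0445). The call was lost without any of 10 of the 12 wells, all but Nthy-ori 3-1 siNT well 3 and siCOPZ1 well 2, with differences of 0.52 to 0.64 over the 12 and adjusted p-values up to 0.117. With only the 12 arrays of the comparison PARP12 was not called (adjusted p = 0.0705), and ISG20, OAS3 and RSAD2 were, while the well number as a block added IFITM2 to PARP12. At an unadjusted p below 0.05, 10 of the 49 passed, against 16.6%. OAS3 (0.77 ± 0.25), DDX60L (0.84 ± 0.26), EPSTI1 (-0.88 ± 0.28) and ISG20 (1.16 ± 0.38) had line differences of larger size, not called, with adjusted p-values of 0.0803 to 0.0969. At 48 h none passed, and none of all genes did. There, 2 of the 49 passed an unadjusted p below 0.05, against 3.30%.

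The effect in TPC-1 also differed between the times for 2 genes, in opposite directions. DDX60L, with 6.76, 6.95 and 7.08 in siNT and 6.81, 6.56 and 6.09 in siCOPZ1 wells at 48 h, went from -0.44 at 48 h to 0.69 at 72 h, a change of 1.13 ± 0.26 (adjusted p = 0.0279). IFI6 went from 1.93 to -0.05, a change of -1.99 ± 0.50 (adjusted p = 0.0394). The 2 genes are 4.08% of the 49, against 2.04% of all genes (0.939% higher and 1.11% lower at 72 h). At an unadjusted p below 0.05, 10 of the 49 passed, against 15.6%.

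These 2 calls rest on few wells. That of DDX60L was lost without any of 7 of the 12 wells, namely siNT 48 h wells 2 and 3, siCOPZ1 48 h well 3, siNT 72 h wells 1 and 2, and siCOPZ1 72 h wells 2 and 3, with changes of 0.94 to 1.29 over the 12 and adjusted p-values up to 0.0894. That of IFI6 was lost without any of 9 of the 12, namely siNT 48 h wells 2 and 3, siCOPZ1 48 h wells 2 and 3, every siNT 72 h well and siCOPZ1 72 h wells 2 and 3, with changes of -2.39 to -1.49 and adjusted p-values up to 0.124. The count of 2 genes became 0, 1 or 4 without some of these wells, 4 without siNT 48 h well 1. With only the 12 arrays of the comparison neither was called (adjusted p = 0.139 for DDX60L and 0.174 for IFI6). With the well number as a block EPSTI1 was called as well, at -1.07 ± 0.28 (adjusted p = 0.0541) without it.

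The largest differences of the 49 genes lay between the control wells of the lines. With siNT, over both times, 21 were higher and 8 lower in TPC-1 than in Nthy-ori 3-1, 59.2% in all, against 44.1% of all genes, of which 20.0% were higher and 24.1% lower. At an unadjusted p below 0.05 it was 30 genes, against 49.6% of all. The median difference was 0.29 over the 49 and -0.01 over all genes. All 6 TPC-1 wells lay above all 6 Nthy-ori 3-1 wells for 14 genes, 28.6% against 10.5% of all genes, and below for 3, 6.12% against 12.5%. Over the wells left out in turn the count ran from 25 to 29.

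IFI44L stood furthest apart. In Nthy-ori 3-1 siNT wells it measured 3.98, 3.94 and 3.79 at 48 h and 6.62, 5.36 and 5.27 at 72 h, and in TPC-1 siNT wells 10.74, 8.82 and 9.60 at 48 h and 10.94, 9.90 and 10.46 at 72 h. Every TPC-1 well exceeded every Nthy-ori 3-1 well, by 5.25 ± 0.32 on average, or 38.0-fold (adjusted p = 2.86e-11). The Nthy-ori 3-1 wells at 48 h lay under the dim level of 5.34, so the fold there is read against dim signal.

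IFITM2 (3.48 ± 0.22, 11.2-fold), SP100 (2.98 ± 0.15, 7.87-fold), IFI44 (2.69 ± 0.24, 6.46-fold) and OAS2 (1.82 ± 0.15, 3.52-fold) followed, all without overlap and with adjusted p-values of at most 9.18e-09. SP100, for instance, lay between 6.13 and 7.00 in Nthy-ori 3-1 and between 9.01 and 9.92 in TPC-1. IFI16, TRIM21 and GBP1 were also higher without overlap, by 1.81, 1.52 and 1.52. The mean of the Nthy-ori 3-1 siNT wells lay under the dim level of 5.34 for IFI44 (4.57), OAS2 (4.76) and TRIM21 (4.79), so the size of these differences is read against dim signal.

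The genes higher in Nthy-ori 3-1 were fewer. MX2, an MX1 relative that acts against HIV at the nuclear pore, measured 5.50, 5.17, 5.22, 6.43, 6.22 and 5.73 in its siNT wells and 3.18, 2.80, 3.47, 2.84, 3.05 and 3.91 in those of TPC-1, where every group lay under the dim level. The lines did not overlap (-2.50 ± 0.21, 5.66-fold, adjusted p = 5.54e-09). EPSTI1 (-1.10 ± 0.14) and SAMHD1, a dNTP-degrading enzyme (-0.81 ± 0.11), were lower in TPC-1 without overlap, and IFITM1 (-1.0 ± 0.22) with overlap, so IFITM1 and IFITM2 differed between the lines in opposite directions.

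TDRD7 was also lower in TPC-1 (-0.53 ± 0.19, adjusted p = 0.0282), with overlap. That call was lost without Nthy-ori 3-1 48 h well 1 (-0.41, adjusted p = 0.0930) or 72 h well 2 (-0.47, 0.0718), and without TPC-1 48 h well 1 or 3 (-0.50 each, 0.0601 and 0.0599) or 72 h well 1 (-0.46, 0.0728). ISG15, ADAR, SAMD9 and OASL differed by 0.06, 0.03, 0.02 and -0.03, with 95% intervals inside a 2-fold change.

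**Figure D3:**
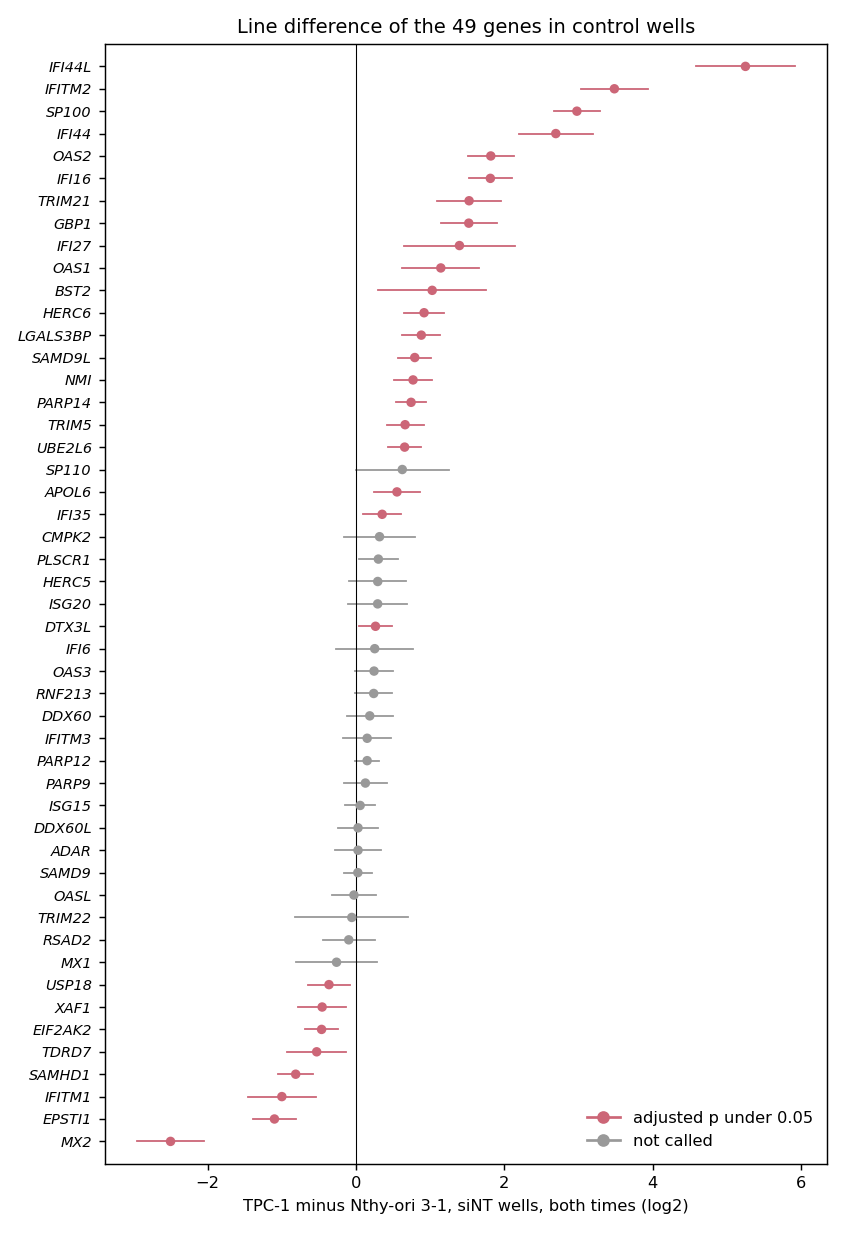
TPC-1 minus Nthy-ori 3-1 in siNT wells over both times for the 49 genes, as log2 differences with 95% intervals, n = 6 wells a line. The differences run from -2.50 in MX2 to 5.25 in IFI44L, with 21 genes called higher and 8 called lower in TPC-1.

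The control wells were also compared between the times. In Nthy-ori 3-1 siNT wells, 40 of the 49 genes were higher at 72 h than at 48 h, 81.6% against 48.4% of all genes, with a median of 0.32 against -0.01, and 10 had every 72 h well higher, 20.4% against 7.71% of all genes. No gene passed limma's adjusted test there, among the 49 or among all genes, and 13 of the 49 passed an unadjusted p below 0.05, against 8.31%. IFI44L (1.85 ± 0.45, adjusted p = 0.174), BST2 (1.41 ± 0.50), IFITM2 (1.21 ± 0.30) and IFITM1 (1.02 ± 0.31) had the largest differences. BST2 measured 3.17, 3.18 and 3.11 at 48 h and 5.73, 3.37 and 4.58 at 72 h, with the later wells all higher and far apart, though 5 of these 6 values lie under the dim level. In an alternative chosen after the data were seen, leaving out each of the 6 wells in turn gave 36 to 42 positive differences and medians of 0.20 to 0.37, with the fewest without 72 h well 1. In that well 37 of the 49 genes exceeded their group mean, and in 72 h well 2 it was 12. The siNT wells at 48 h enter both this comparison and the depletion effect at 48 h, where IFI44L and IFI6 had their largest Nthy-ori 3-1 differences.

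In TPC-1 siNT wells the same comparison gave 28 positive differences, 57.1% against 50.7% of all genes, a median of 0.03, and no call by limma, against 2.10% of all genes (0.301% higher and 1.80% lower). All later wells were higher for 2 genes and lower for 3, 4.08% and 6.12% against 7.48% and 8.66% of all genes, and 8 of the 49 passed an unadjusted p below 0.05, against 17.4%. IFI27 had the largest difference, 1.40 ± 0.50 (adjusted p = 0.145), with 7.97, 5.54 and 5.64 at 48 h and 8.52, 6.98 and 7.86 at 72 h. Well 1 at 48 h lay among the later wells. Without that well the count of called genes was 4, and with the well number as a block IFI27 was called.

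**Figure D4:**
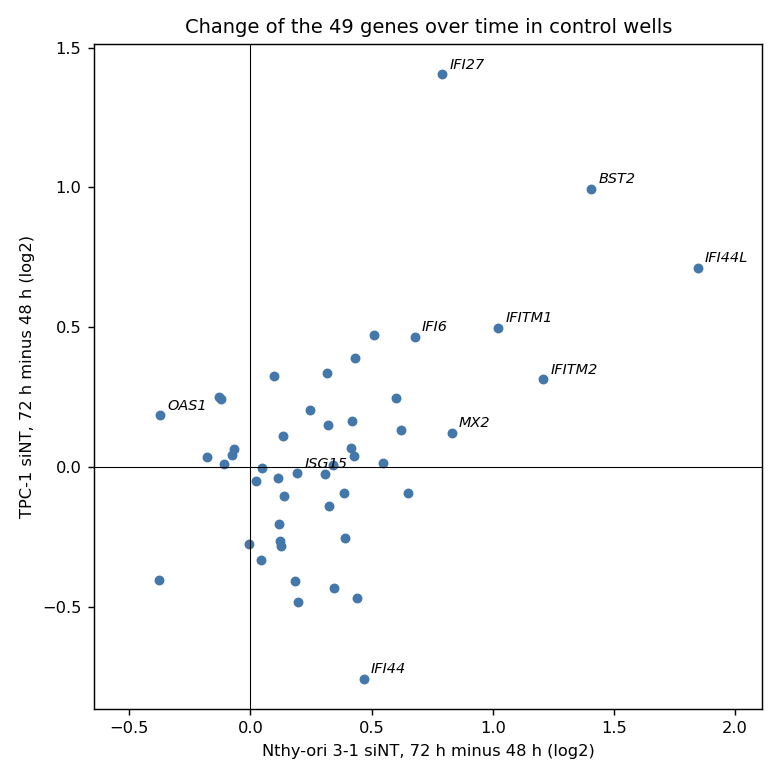
Change from 48 h to 72 h in siNT wells of Nthy-ori 3-1 (x axis) and TPC-1 (y axis), as log2 differences, 1 point per gene. Of the 49 points, 40 lie right of 0 and 28 above 0.

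The level in control wells was compared with the depletion effect across genes. Since the siNT wells of the same time enter the effect, the level was taken from the siNT wells of the other time. Levels of different genes on an array also carry the strength of their probes, and genes are not independent replicates, so the rank correlations are descriptions over 49 genes. In TPC-1 at 72 h the rank correlation was -0.168, with a standard deviation of 0.101 when the effect was taken from each siCOPZ1 well in turn, and it was 0.00450 over all 18632 genes. The 16 genes of lowest level had a median effect of 0.23, the 17 in the middle 0.11 and the 16 of highest level 0.01. The 6 called genes lay in all 3 classes, with 2 in each: ISG20 and IFI27 at the low end, DDX60L and PARP9 in the middle, and PARP12 and SP100 at the high end.

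In the other depletion effects the rank correlation of control level and effect was -0.0777 in TPC-1 at 48 h, 0.240 in Nthy-ori 3-1 at 72 h and -0.214 in Nthy-ori 3-1 at 48 h, so its sign varied. Over all genes these were -0.0841, -0.0327 and -0.111. Within a gene the probes cancel, and the line difference of the level in siNT wells could be set against the line difference of the effect. At 72 h the rank correlation was -0.185 over the 49 and -0.196 over all genes, and at 48 h -0.0564 and -0.0549. IFITM2, with a level higher in TPC-1, had a more negative effect there, and MX2, with a lower level, a more positive one. SP100, with a much higher level, differed little in effect. None of these line differences of the effect was called in the main fit, and MX2 lay under the dim level in every TPC-1 group. For these line differences the relation among the 49 was as weak as among all genes. For control level against effect, the correlations over the 49 and over all genes differed most at 72 h in both lines.

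**Figure D5:**
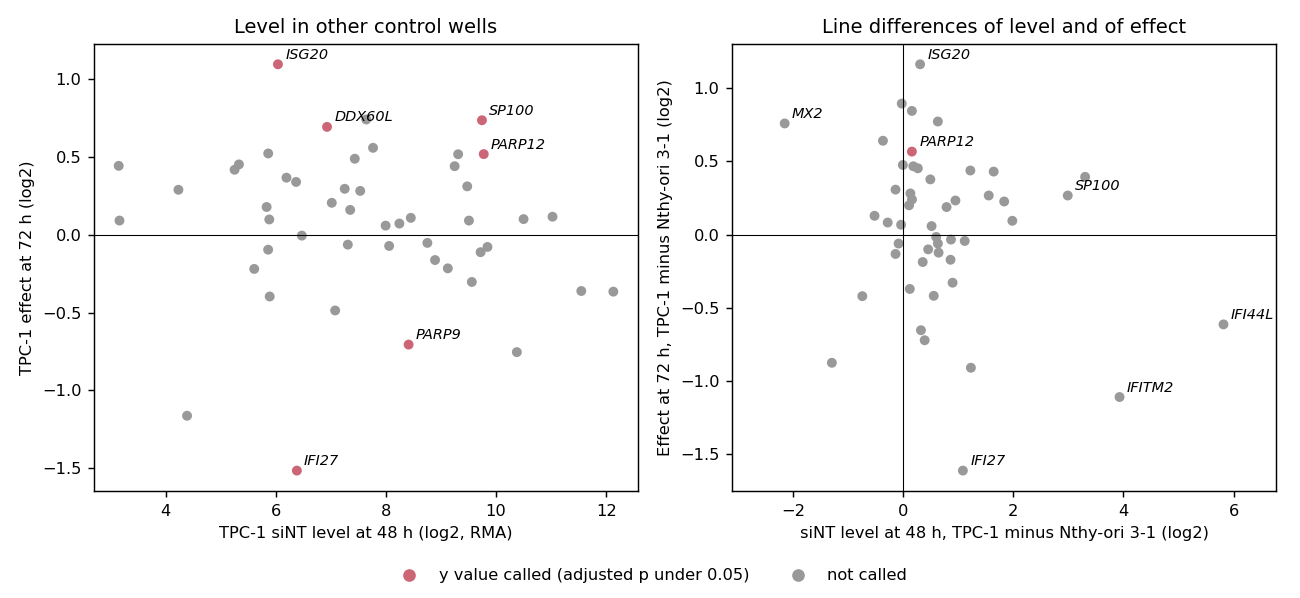
Left, level of the 49 genes in TPC-1 siNT wells at 48 h (x axis, log2) against the depletion effect at 72 h (y axis, log2). Right, line difference of the siNT level at 48 h (x axis) against the line difference of the effect at 72 h (y axis); the rank correlations are -0.168 and -0.185.

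Effects were also split by whether a window held the response element core. In TPC-1 at 72 h the 28 genes with a match had a median effect of 0.10, with 3 called higher and 2 lower, and the 14 without a match a median of 0.10, with SP100 called higher. In TPC-1 at 48 h the medians were 0.13 and 0.09. The change of siNT wells from 48 h to 72 h in Nthy-ori 3-1 had a median of 0.38 with a match and 0.12 without, and the siNT line difference 0.26 and 0.49. A window without a match can still hold GAAA repeats at another spacing, such as GAAACGAAA in OAS1 and XAF1. No test was made of these splits.

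The genes upstream were examined as a list of their own. Of 7 interferon genes measured, none was called in TPC-1 at 72 h, and IFNB1, the gene of interferon beta, measured 3.66, 3.57 and 3.83 with siNT and 4.01, 3.79 and 4.15 with siCOPZ1. These levels lie under the dim level and overlap (0.30 ± 0.14, adjusted p = 0.177). Of 6 receptor chains 2 rose, IFNAR2 and the interferon gamma receptor chain IFNGR2, 33.3% against 7.03% of all genes called higher. IFNAR2 measured 8.05, 7.87 and 8.39 with siNT and 9.69, 9.11 and 9.21 with siCOPZ1, without overlap (1.23 ± 0.22, adjusted p = 0.000665), and its effect exceeded that in Nthy-ori 3-1 by 1.33 ± 0.31 (adjusted p = 0.0180). IFNGR2 was higher by 0.71 ± 0.17 (adjusted p = 0.00720).

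Of 11 kinases and transcription factors, 2 rose, 18.2% against the same 7.03%. IRF1, a factor induced by interferon gamma, measured 7.18, 7.73 and 7.67 with siNT and 8.81, 8.37 and 8.56 with siCOPZ1 (1.05 ± 0.26, adjusted p = 0.00833), and JAK2 was higher by 0.66 ± 0.17 (adjusted p = 0.0126). STAT2 (-0.21 ± 0.24) and IRF9 (-0.50 ± 0.32) were not called. Of 5 inhibitors the phosphatase gene PTPN2 rose (0.63 ± 0.13, adjusted p = 0.00184), or 20.0%. In the IFIT family IFIT3 rose (0.98 ± 0.27, adjusted p = 0.0166), and IFIT1 (-1.04 ± 0.33, adjusted p = 0.0380) and IFIT2 (-0.72 ± 0.21, adjusted p = 0.0262) fell, so 75.0% of its 4 genes were called against 14.4% of all genes. None of these 33 genes was called in TPC-1 at 48 h or in Nthy-ori 3-1 at either time, where 0.166% and 0.00537% of all genes were, and single wells were not left out for them. Between the lines in siNT wells, 2 of 7 interferon genes, 1 of 6 receptor chains, 5 of 11 kinases and factors, 2 of 5 inhibitors and 1 of 4 IFIT genes were higher in TPC-1, and 1 receptor chain, 3 inhibitors and 1 IFIT gene were lower, beside 20.0% of all genes higher and 24.1% lower. JAK1 was higher by 1.18 ± 0.08 and IRF1 by 0.60 ± 0.18.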

How the data were processed

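Total RNA of 24 wells was hybridised to 24 arrays, and the deposited table holds log2 expression values per gene that the authors computed by RMA, per the submitters' processing notes. The labels' protocols name an Affymetrix labelling protocol but no chip design, probe sets or build, and the number of arrays limits the precision. Of 18637 rows, 28 have symbols turned into dates and were kept under their identifiers, and for 5 symbols on several rows the brightest row was kept, leaving 18632 genes. limma 3.58.1 (R 4.3.3, eBayes, 16 residual degrees of freedom) fitted the means of the 8 groups over all 24 arrays. The 10 contrasts were each adjusted by Benjamini-Hochberg over all genes, and the threshold for a call was 0.05. Exact permutation of 3 against 3 wells cannot go below 0.1 and was not used.

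The 49 genes, their roles and the pathway lists were chosen with earlier results of these data known. Every array is given for genes called in a depletion effect and for ISG15, MX1, IFI6, IFI27, OAS1, IFI44L, RSAD2 and BST2, and differences for the extremes of each role, the 5 largest line differences each way and genes called in an interaction. Other members named were picked after their values were seen.

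Wells with the same number in TPC-1 at 48 h deviated together (correlations 0.404, 0.292 and 0.145 over all genes). The labels state no shared batch, and the main fit did not pair wells. An alternative fit took the number as a block within each line, over both times and both siRNAs. With that block, calls over all genes in TPC-1 at 48 h went from 31 to 78, and IFI6 stayed the single member called. Over all genes, the other line and time pairs each had a number below 0.1. Over the interferon-stimulated genes alone, wells with the same number also deviated together in TPC-1 at 72 h for wells 1 and 2. These correlations for wells 1, 2 and 3 were 0.483, 0.398 and 0.050 in TPC-1 at 72 h. At 48 h in TPC-1 they were 0.362, 0.185 and 0.346. In Nthy-ori 3-1 they were 0.039, 0.038 and 0.077 at 48 h and 0.143, -0.042 and 0.257 at 72 h. Alternatives were median centring, repeated quantile normalisation, the replicate block, a trended robust eBayes, leaving out dim genes, array weights, fewer arrays and leaving out each well.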

Additional observations from a re-analysis of the deposited data

Results flagged for a closer look

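The depletion effect of 3 genes differed between lines or times by the interaction test, limma adjusted over all genes. PARP12 responded more in TPC-1 than in Nthy-ori 3-1 at 72 h, by 0.57 ± 0.16 (adjusted p = 0.0445). In TPC-1 the effect of DDX60L was higher at 72 h than at 48 h by 1.13 ± 0.26 (adjusted p = 0.0279), and that of IFI6 lower by -1.99 ± 0.50 (adjusted p = 0.0394). Each call was lost without some single wells, in 10, 7 and 9 of 12 omissions.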

How the results depend on the processing

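Without 1 well at a time, the count of called genes ran from 3 to 6 for TPC-1 at 72 h, 0 to 1 for TPC-1 at 48 h, 0 to 2 for the line difference of the effect at 72 h, 0 to 4 for its time difference in TPC-1, 25 to 29 for the siNT line difference and 0 to 4 for siNT over time in TPC-1. With only the arrays of a comparison these counts were 3 at 72 h, 0 at 48 h, 3 for the line difference (ISG20, OAS3 and RSAD2, without PARP12) and 0 for the time difference. The replicate block gave 2 for the line difference at 72 h and 1 for siNT over time in TPC-1, as did array weights (2 and 1), and it changed no other of these counts by over 1.5 times, with 8 at 72 h and 30 for the siNT line difference. Without all arrays numbered 1 the time difference and siNT over time in TPC-1 each gave 1, and the 1 gene of the line difference was PARP9, with PARP12 at 0.48 (adjusted p = 0.301). The causes were not tested. Nthy-ori 3-1 gave 0 under all 14 alternatives at each time. The rank correlation of control level and effect in TPC-1 at 72 h was -0.275 with the level from the 72 h siNT wells, which enter the effect, and -0.253 to -0.105 over single wells. Of genes never called at 72 h in TPC-1, IFI6 (-0.23 to 0.11), OAS1 (-0.76 to 0.27) and IFI44L (-0.51 to 0.14) crossed 0 over single wells, at 0.03 and 0.11 for IFI6, 0.27 for OAS1, and 0.14, 0.14 and 0.04 for IFI44L. The cause was not tested. Of the 49 genes, 13 had a level under the dim level in some group, and small changes there are hard to detect.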
